A study of Mus musculus with 17 samples.

Results

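The response of *Pcbp2*-deficient β cells to high glucose was measured in 10 of the 17 samples of the series, namely the 5 samples of sorted *Pcbp2* βKO β cells from islets kept at 16.7 mM glucose and the 5 from islets kept at 2.8 mM. The samples were chosen by the genotype and the glucose concentration in their labels, and every gene was examined. *Pcbp2* βKO mice carried homozygous floxed *Pcbp2* alleles and RIP-Cre, in which the rat insulin promoter drives the Cre recombinase, together with a *Rosa26* allele that turns on the red fluorescent protein tdTomato after recombination. The control cells, labelled WT, came from RIP-Cre mice with the tdTomato allele and intact *Pcbp2*, with 3 samples at 2.8 mM and 4 at 16.7 mM, so that both genotypes shared the Cre driver and the reporter. All mice were males on a C57BL/6 background, and their ages and the number of mice behind a sample were not given for these samples. Islets first recovered in medium with a glucose concentration between 2.8 and 16.7 mM. They were then cultured for 72 hours at either of these and dispersed. Rises and falls below are of 16.7 mM relative to 2.8 mM, and do not tell which group had changed from the recovery state. Live tdTomato-positive cells, negative for the dye DAPI that enters dead cells, were sorted for RNA sequencing. A sorted cell was therefore one in which Cre had acted, and the libraries measured a mixture of all cells within that gate.

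β cells sense glucose by metabolising it. Glucose enters through a transporter, is phosphorylated, and its oxidation closes ATP-sensitive potassium channels, so that calcium enters and insulin granules fuse with the membrane. Prolonged high glucose also acts on transcription, through calcium- and cAMP-dependent factors such as CREB, through the carbohydrate-response factor ChREBP, and through the demand for proinsulin folding in the endoplasmic reticulum (ER). PCBP2 is a poly(C)-binding protein that binds cytosine-rich stretches of RNA and acts on the stability, splicing and translation of its targets.

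Levels are given below as CPM, the estimated counts of a gene relative to the library size after TMM scaling, and the values of a group are listed in the order of replicates 1 to 5. *Pcbp2* (chr15:102378928-102408805 in GRCm39), the deleted gene, amounted to 19.2, 17.5, 16.8, 15.5 and 18.2 CPM at 2.8 mM and to 10.03, 5.81, 6.39, 8.48 and 7.61 CPM at 16.7 mM in the knockout cells. In control cells it stood at 63.4, 73.4 and 50.7 CPM at 2.8 mM and at 35.0, 45.4, 44.4 and 36.7 CPM at 16.7 mM, so that every *Pcbp2* βKO sample lay below every control sample, although reads remained. The remaining transcript itself fell at high glucose in *Pcbp2* βKO cells (log2 fold change -1.19, SE 0.15, adjusted p = 2.26e-05, from the quasi-likelihood test of edgeR), and it fell in control cells too (log2 fold change -0.63, SE 0.18, adjusted p = 0.0208). None of the 4 other poly(C)-binding proteins of the KH family passed the test in *Pcbp2* βKO cells. *Pcbp1* changed by -0.09 on the log2 scale, *Pcbp3* by 0.28 (−0.20 with total counts alone), *Pcbp4* by -0.22, and *Hnrnpk*, the member with the highest level, by -0.19. *Hnrnpk* and *Pcbp4* passed the test, as lower, only when libraries were scaled by total counts alone.

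The 10 libraries held 47385513 to 82419400 estimated counts, with the shallowest at 2.8 mM. To be called, a gene had to pass an adjusted p of 0.05 and differ by more than 1.5-fold. Of 22784 genes tested, 5431 (23.8%) were called between 16.7 mM and 2.8 mM glucose in *Pcbp2* βKO cells, of which 3056 (13.4% of the genes tested) rose and 2375 (10.4%) fell. Changes over 4-fold were called in 845 genes that rose and 368 that fell. The 5 values of one glucose concentration lay wholly above or below the 5 of the other in 4926 genes (21.6% of those tested), 3739 of them called. Protein-coding genes made up 15746 of the genes tested, and 15.05% of them rose and 12.7% fell, while among 3672 long noncoding RNAs 13.3% rose and 5.77% fell. These directions are relative to the bulk of genes. After TMM scaling the median log2 fold change of all genes was 0.01, whereas after scaling by total counts alone it was −0.47, and 1482 genes were then called higher and 6369 lower. The insulin genes took a much larger share of the reads at 16.7 mM, as given below, and the counts of a gene group with total counts alone are given beside it where they differed by more than 1.5 times.

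The 2 glucose groups separated along the first principal component of the 10 samples, which held 42.3% of the variance. The samples at 2.8 mM scored −63.3, −67.5, −64.3, −65.2 and −85.8, and those at 16.7 mM scored 99.4, 93.9, 96.7, 31.2 and 24.9 (two-sided exact permutation test, p = 0.00794, the smallest p that 5 against 5 samples can give). Replicates 4 and 5 at 16.7 mM thus lay on the same side as the other 3 samples but closer to low glucose. The second component, with 12.1% of the variance, set replicate 5 of both concentrations apart, at 69.6 and 78.0 against −0.55 or less in the other 8 samples, and did not separate the concentrations (exact permutation test, p = 0.468). Over the 5431 called genes, the median difference from the 2.8 mM mean was 116%, 116% and 120% of that of the other 4 samples in replicates 1, 2 and 3 at 16.7 mM, but 71.2% in replicate 4 and 82.1% in replicate 5. Without replicates 4 and 5 at 16.7 mM, 3273 genes were called higher and 2850 lower.

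**Figure D1:**
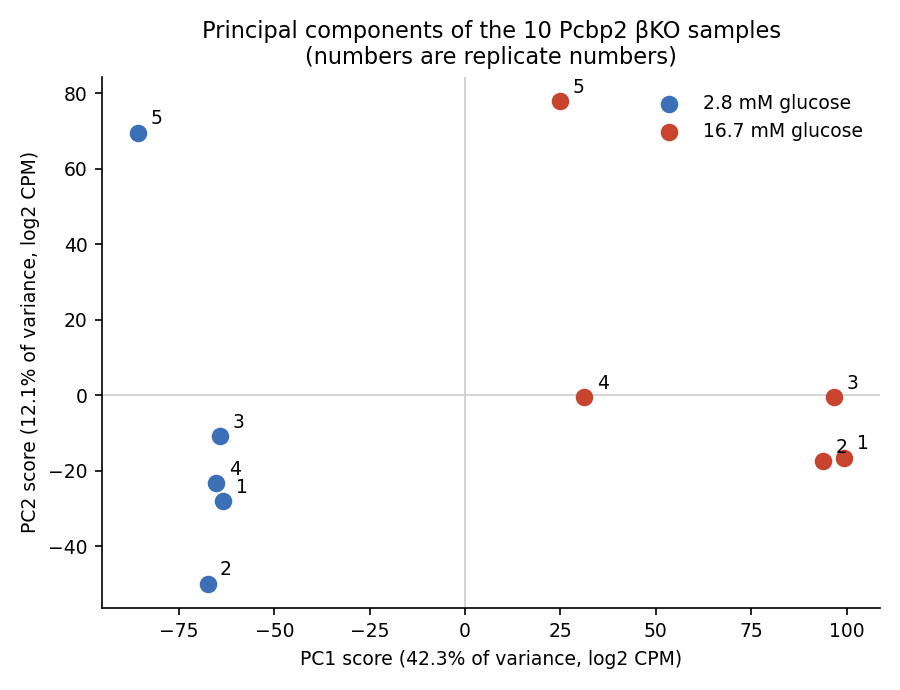
Principal component scores of the 10 *Pcbp2* βKO samples, from the log2 CPM of 22784 genes. Each point is 1 sample, blue at 2.8 mM and red at 16.7 mM glucose, with its replicate number beside it. The horizontal axis (PC1) separates the glucose concentrations, with replicates 4 and 5 at 16.7 mM at 31.2 and 24.9 against 93.9 to 99.4 for the others, and the vertical axis (PC2) separates replicate 5 of both concentrations from the other 8 samples.

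Insulin transcripts and the cargo of insulin granules rose together in *Pcbp2* βKO cells at high glucose. Of 13 tested genes of a list of insulin, amylin and granule cargo, 11 rose and none fell, with a median log2 fold change of 1.80 against 0.01 over all genes, and 8 rose and 1 fell with total counts alone. The list holds *Gng12*, a G protein γ subunit that is not granule cargo and rose by 1.80, and without it 10 of 12 genes rose, with a median of 1.53 (left out after its value was seen). *Ins2* (chr7:142232393-142297118 in GRCm39), the insulin gene that mice share with other mammals, stood at 57555, 46813, 41859.8, 40433 and 85258 CPM at 2.8 mM and at 295574, 243333, 293742, 239320.0 and 260005 CPM at 16.7 mM. It rose 4.90-fold (log2 fold change 2.29, SE 0.22, adjusted p = 3.33e-06), and the lowest sample at 16.7 mM lay well above the highest at 2.8 mM. As a share of all estimated counts, *Ins2* went from 6.60% ± 2.21 (SD, n = 5) to 23.1% ± 1.66 (SD, n = 5). *Ins1* (chr19:52252735-52253914 in GRCm39), the rodent-specific insulin gene derived from *Ins2* by retroposition, stood at 1172, 1751, 1064, 967 and 1516 CPM at 2.8 mM and at 68665, 53988, 70238, 52934 and 52818 CPM at 16.7 mM. Its rise was 46.2-fold (log2 fold change 5.53, SE 0.28, adjusted p = 2.3e-09), the larger one as a ratio. In percentage points of all counts *Ins2* gained more, 16.5 against 5.02 for *Ins1*. The coding sequences of *Ins1* and *Ins2* are nearly identical, so that the split of reads between them by Kallisto is uncertain. With that reservation, *Ins1* made up 1.99%, 3.61%, 2.48%, 2.33% and 1.75% of the counts of both genes at 2.8 mM and 18.9%, 18.2%, 19.3%, 18.1% and 16.9% at 16.7 mM. The split also depends on the measure. In TPM, which is scaled by transcript length, *Ins1* took a mean of 0.157% and *Ins2* 23.9% at 2.8 mM. At 16.7 mM these TPM shares were 3.53% and 57.1%.

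**Figure D2:**
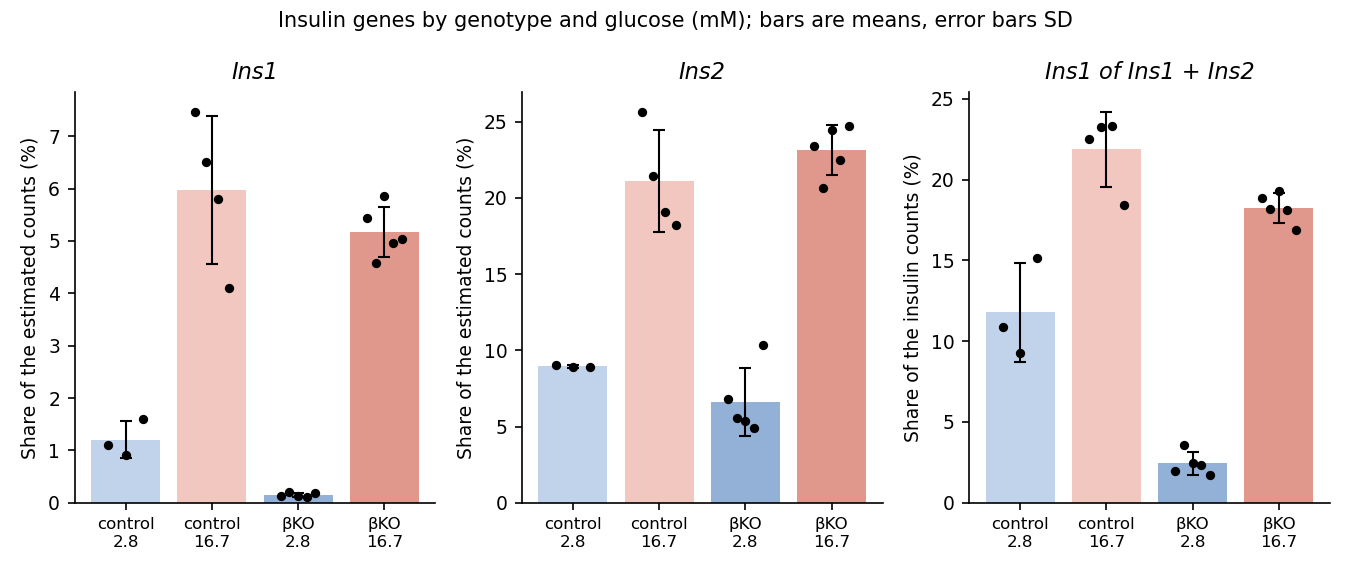
Share of *Ins1* and of *Ins2* in all estimated counts of a sample, and share of *Ins1* in the counts of both genes (percent, vertical axes), in control and *Pcbp2* βKO cells at 2.8 and 16.7 mM glucose. Points are samples, bars are means and error bars are SD. *Ins1* in *Pcbp2* βKO cells went from 0.157% ± 0.0373 (SD, n = 5) to 5.17% ± 0.483 (SD, n = 5) of the counts.

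Among the other granule proteins, *Iapp*, which encodes amylin, stood at 32524, 21579, 24466, 24272 and 9670.4 CPM at 2.8 mM and at 106801, 105810.0, 94947, 63732 and 45946 CPM at 16.7 mM. Its 2 groups did not overlap, and replicates 4 and 5 were the lowest at 16.7 mM (log2 fold change 1.89, SE 0.30, adjusted p = 0.000147). The granins *Scg2*, *Chgb*, *Chga* and *Scg3* rose by 1.17, 1.12, 0.96 and 0.85 on the log2 scale. The calls of *Chgb*, *Chga* and *Scg3* were lost with total counts alone, and those of *Chgb* and *Scg3* were also lost without replicate 2 at 16.7 mM, at adjusted p = 0.0963 and 0.0844. *Scg3* also lost its call without replicate 1 at 16.7 mM or replicate 2 at 2.8 mM (adjusted p = 0.0539 and 0.0624), and with a replicate block (adjusted p = 0.0565). *Npy* and *Vgf* rose by 2.96 and 2.91, and *Nnat* rose as well, from levels of at most 5.95 CPM at 2.8 mM, and their groups overlapped. *Npy* and *Vgf* lost their calls with limma and voom weights (adjusted p = 0.0565 and 0.0744). *Scg5*, a chaperone of the prohormone convertase PC2, changed by 0.35 (adjusted p = 0.155) and by −0.15 with total counts alone. *Ucn3*, a marker of mature β cells, was the member with a negative estimate (log2 fold change -0.44, SE 0.24, adjusted p = 0.181). With total counts alone and without replicate 5 at 2.8 mM it passed the test as lower, at log2 fold changes of −0.92 and −0.60 (adjusted p = 0.00488 and 0.0337).

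The enzymes that convert proinsulin and the proteins of the granule membrane moved in the same direction, with 7 of 14 called higher and none lower, and 5 higher and 1 lower with total counts alone. *Pcsk1*, the prohormone convertase PC1/3 that makes the first cut in proinsulin, stood at 343, 222, 292, 297 and 164 CPM at 2.8 mM and at 2211, 1978, 2134, 1021 and 935 CPM at 16.7 mM. Every sample at 16.7 mM lay above every sample at 2.8 mM, with replicates 4 and 5 the lowest at 16.7 mM (log2 fold change 2.65, SE 0.32, adjusted p = 1.54e-05). *Ero1b*, the β cell oxidase that supplies disulfide bonds in the ER, stood at 685, 431, 556, 551 and 305 CPM and 2810.0, 1964, 2954, 2388 and 2895 CPM, and rose in all samples to a like level (log2 fold change 2.36, SE 0.24, adjusted p = 4.04e-06). *Slc18a1*, a vesicular monoamine transporter, rose by 2.03 and *Pcsk2*, the convertase PC2, by 1.02 on the log2 scale. *Pcsk2* was called in all settings but scaling by total counts. *Cpe*, the carboxypeptidase that trims the cut ends, had the highest level of the list and changed by 0.19 (adjusted p = 0.38), or by −0.30 with total counts alone.

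Of 20 transcription factors of β cell identity, 8 rose and 1 fell, against 13.4% and 10.4% of all genes, but with total counts alone 2 rose and 3 fell. *Mafa*, an activator of the insulin promoter, stood at 2.06, 0.587, 2.30, 2.01 and 0.719 CPM at 2.8 mM and at 10.7, 6.32, 14.01, 13.5 and 30.9 CPM at 16.7 mM. The lowest value at 16.7 mM was above the highest at 2.8 mM, and replicate 5 was the highest (log2 fold change 3.30, SE 0.46, adjusted p = 5.37e-05). *Pdx1* stood at 64.8, 38.1, 66.6, 60.6 and 60.0 CPM and 115, 107, 125, 116 and 168 CPM, without overlap (log2 fold change 1.12, SE 0.20, adjusted p = 0.000343). *Nkx6-1* rose by 0.93, a call that was lost with total counts alone. *Rfx6* was the 1 member that fell (log2 fold change -0.66, SE 0.20, adjusted p = 0.0177), at 231, 284, 216, 219 and 129.7 CPM at 2.8 mM and 119, 148, 107, 136 and 175 CPM at 16.7 mM. Its groups overlapped, since replicate 5 was the lowest at 2.8 mM and the highest at 16.7 mM, and its call was lost without replicate 2 at 2.8 mM (adjusted p = 0.0559) or replicate 3 at 16.7 mM (adjusted p = 0.053).

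ChREBP binds carbohydrate-response elements, pairs of E-boxes, when glucose is metabolised. Of 18 tested genes of ChREBP, its partners and its targets, 8 rose and 3 fell, and with total counts alone 7 rose and 4 fell. *Txnip*, an arrestin-domain protein that inhibits thioredoxin and glucose uptake, stood at 35.0, 37.9, 41.7, 41.1 and 36.7 CPM at 2.8 mM and at 606, 664, 406, 485 and 1426 CPM at 16.7 mM. The 5 samples at low glucose lay within a narrow range and replicate 5 was the highest at 16.7 mM (log2 fold change 4.22, SE 0.29, adjusted p = 1.92e-07). Its relative *Arrdc4*, chosen after its values were seen because it shares this regulation, stood at 21.7, 32.4, 20.3, 23.7 and 30.7 CPM and 57.6, 65.9, 47.7, 53.4 and 76.8 CPM, likewise without overlap (log2 fold change 1.23, SE 0.16, adjusted p = 2.62e-05). The stretches before the transcription start of both genes are shown because *Txnip* had the largest rise of the list. They were taken from RefSeq on GRCm38.p6 (*Txnip* chr3:96557807-96557956, forward strand, and *Arrdc4* chr7:68749239-68749488, reverse strand), run 5′ to 3′ and end at the base before the start, with CCAAT boxes (CCAAT, or ATTGG on the other strand) and the E-box CACGTG in capitals.
Txnip: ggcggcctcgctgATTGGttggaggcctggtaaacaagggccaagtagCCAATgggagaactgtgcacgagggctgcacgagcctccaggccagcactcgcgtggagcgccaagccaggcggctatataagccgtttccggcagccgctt
Arrdc4: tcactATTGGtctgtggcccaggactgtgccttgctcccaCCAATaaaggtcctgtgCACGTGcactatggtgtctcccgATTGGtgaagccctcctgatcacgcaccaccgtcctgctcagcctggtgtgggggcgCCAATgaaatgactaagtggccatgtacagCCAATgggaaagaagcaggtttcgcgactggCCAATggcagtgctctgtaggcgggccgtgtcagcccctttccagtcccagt
The *Txnip* stretch held CCAAT boxes whose first bases lie 137 and 102 bases before the start and no CACGTG. The *Arrdc4* stretch held 1 CACGTG, 193 bases before the start, and 6 CCAAT boxes. Over windows from 250 bases before to 50 after the start, searched on both strands, CACGTG was present in 6 of the 15 genes of the list with a window and in 8.09% of all 27025 genes with a window. A pair of CACGTG boxes with 5 bases between was found in no window. Only exact CACGTG was searched, so that pairs of E-boxes with mismatches were not counted. The stretch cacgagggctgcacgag of *Txnip*, with 5 bases between its near-matches, is such a pair, and the search cannot tell whether a gene lacks a carbohydrate-response element.

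*G6pc2*, the islet glucose-6-phosphatase, which removes the phosphate again, stood at 273, 115, 261, 214 and 73.6 CPM at 2.8 mM and at 2425, 1756, 2067, 1201 and 1153 CPM at 16.7 mM (log2 fold change 3.20, SE 0.36, adjusted p = 1.1e-05). At 16.7 mM, replicates 4 and 5 stood at about the same level as each other and below the other 3. *Rgs16*, a regulator of G protein signalling, rose 6.92-fold (log2 fold change 2.79, SE 0.26, adjusted p = 2.58e-06), and *Acly*, which makes cytosolic acetyl-CoA, rose 2.59-fold (log2 fold change 1.37, SE 0.16, adjusted p = 1.46e-05). *Fgf21*, a secreted hormone listed among the targets, fell from 2.45 ± 1.03 CPM to 0.854 ± 0.211 CPM (SD, n = 5; log2 fold change -1.52, SE 0.35, adjusted p = 0.00314).

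In the step of glucose uptake and phosphorylation the β cell transporter rose. *Slc2a2*, the transporter GLUT2, stood at 151, 97.5, 125, 124 and 49.95 CPM at 2.8 mM and at 403, 238, 407, 591 and 684 CPM at 16.7 mM, and here replicates 4 and 5 were the highest (log2 fold change 2.09, SE 0.36, adjusted p = 0.000342). *Slc2a1*, the transporter GLUT1, fell from 49.7 ± 9.403 to 25.6 ± 10.6 CPM (SD, n = 5; log2 fold change -0.96, SE 0.28, adjusted p = 0.0138). *Slc2a3*, *Hk1*, *Hk2* and *Hk3* were all below 3 CPM in every *Pcbp2* βKO sample. Of these, *Hk3* fell (log2 fold change -3.07, SE 0.74, adjusted p = 0.00426), *Slc2a3* was called lower (log2 fold change -1.97, SE 0.70, adjusted p = 0.0404) but lost that call in 9 of the alternative analyses, *Hk1* changed by -1.03 without passing the test and passed it in 6 alternatives, and *Hk2* changed by -0.86 (adjusted p = 0.393).

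Over the 34 genes from glucose uptake to pyruvate, 9 rose and 5 fell, with a median of 0.14, and with total counts alone the count turned to 3 and 13. *Pkm*, pyruvate kinase and the most abundant member, rose 1.82-fold (log2 fold change 0.87, SE 0.16, adjusted p = 0.000519), and its call was lost with total counts alone (log2 fold change 0.38, below 1.5-fold). *Ldha*, which β cells normally hold low, went from 2.36, 2.80, 0.997, 2.41 and 4.85 CPM to 53.2, 44.2, 13.1, 12.97 and 1.76 CPM, and replicate 5 at 16.7 mM stayed within the low-glucose range (log2 fold change 3.22, SE 0.91, adjusted p = 0.0121), and the call was lost with limma and voom weights (adjusted p = 0.0796). *Pdk4*, the kinase that blocks pyruvate dehydrogenase, fell 7.70-fold (log2 fold change -2.94, SE 0.71, adjusted p = 0.004). In the TCA cycle 5 of 27 genes rose and 5 fell, against 13.4% and 10.4% of all genes. With total counts alone 2 rose and 9 fell. The cytosolic, NADP-linked isocitrate dehydrogenase *Idh1* was among the genes with the smallest p (39.2, 34.1, 36.8, 42.7 and 35.4 CPM against 123.4, 117, 92.3, 105.3 and 129 CPM, log2 fold change 1.59, SE 0.12, adjusted p = 5.96e-07), and fumarase *Fh1* rose by 1.57. The mitochondrial *Idh3b* and *Idh2* fell by 1.10 and 1.02 on the log2 scale.

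**Figure D3:**
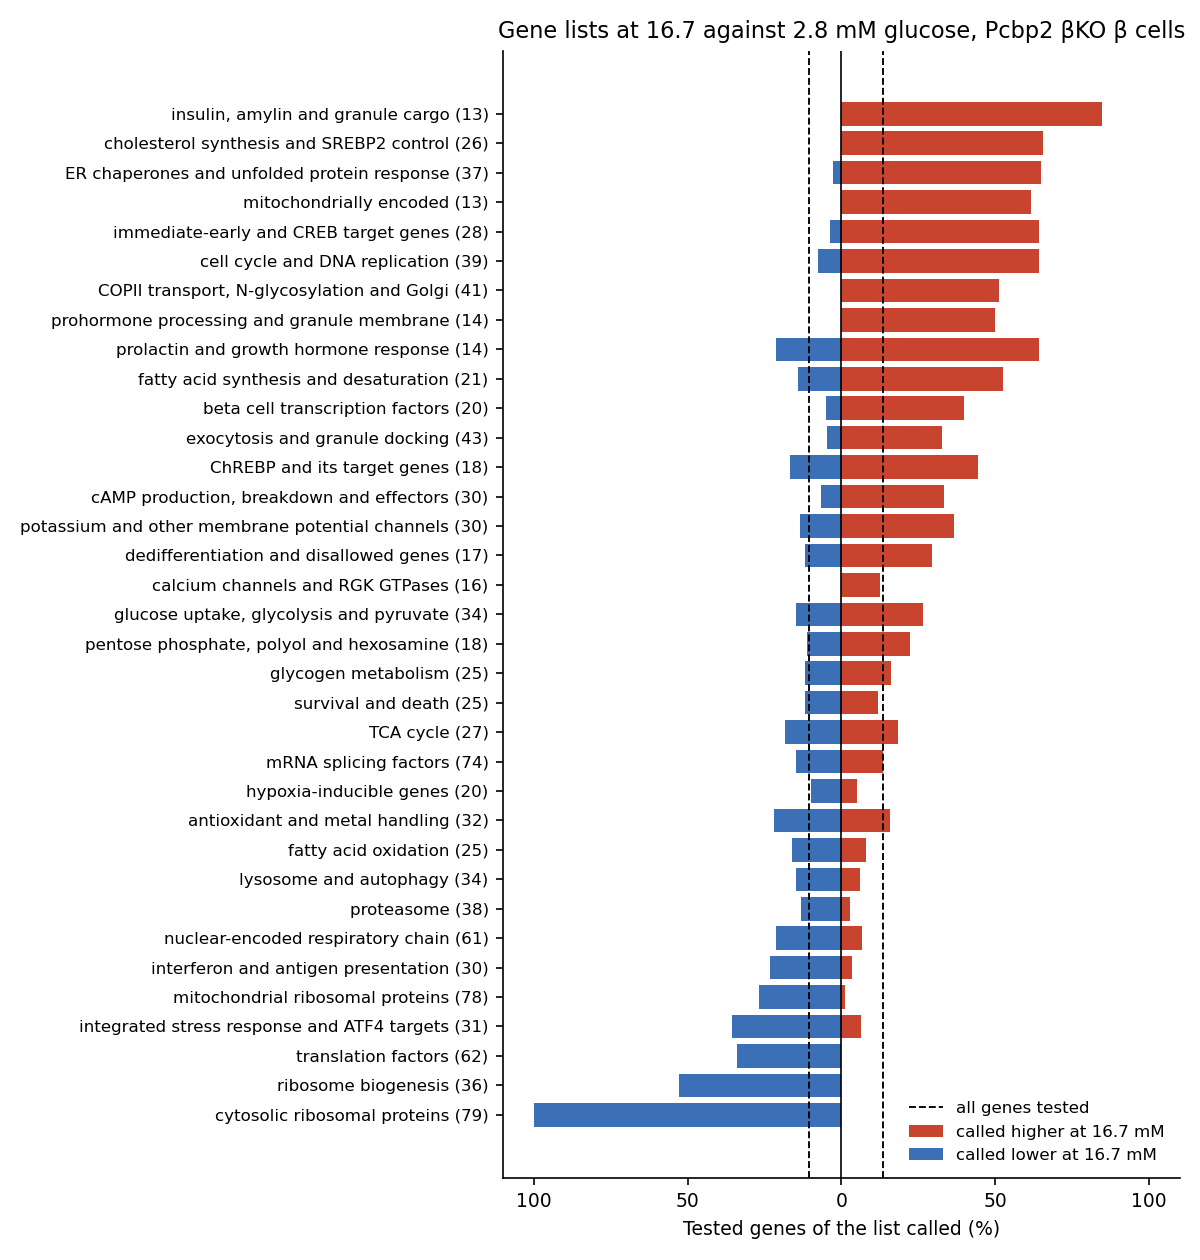
Share of the tested genes of each of 35 lists (number tested in parentheses) that were called higher (red, to the right) or lower (blue, to the left) at 16.7 mM than at 2.8 mM glucose in *Pcbp2* βKO cells. Dashed lines mark the shares of all genes tested, 13.4% higher and 10.4% lower. Granule cargo, cholesterol synthesis and ER genes lie at the top and cytosolic ribosomal proteins, all 79 of them lower, at the bottom.

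Genes of lipid synthesis rose. Among 21 genes of fatty acid synthesis and desaturation, 11 rose and 3 fell, or 7 and 5 with total counts alone. *Fads2*, the Δ6-desaturase, stood at 1.195, 1.62, 2.01, 3.23 and 2.03 CPM at 2.8 mM and at 39.5, 26.6, 32.6, 11.6 and 6.71 CPM at 16.7 mM (log2 fold change 3.54, SE 0.45, adjusted p = 2.39e-05). *Thrsp*, a lipogenic cofactor, and *Scd1*, the Δ9-desaturase, rose by 3.38 and 3.10 from under 0.5 CPM, the groups of *Scd1* overlapped, and its call was lost with a replicate block (adjusted p = 0.0641). *Acsl3*, an acyl-CoA synthetase of lipid droplets, fell by 1.32 on the log2 scale. In the cholesterol pathway and its SREBP2 control, 17 of 26 genes rose and none fell, with a median of 0.85, and 7 rose and 1 fell with total counts alone. *Tm7sf2*, a sterol reductase, stood at 2.90, 2.96, 3.73, 3.28 and 3.17 CPM and 15.7, 18.2, 16.5, 10.7 and 9.10 CPM (log2 fold change 2.13, SE 0.21, adjusted p = 3.07e-06).

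*Idi1*, the isopentenyl-diphosphate isomerase, stood at 12.2, 12.8, 10.7, 12.8 and 16.5 CPM at 2.8 mM and at 73.5, 59.0, 51.8, 42.9 and 38.1 CPM at 16.7 mM, without overlap (log2 fold change 2.03, SE 0.20, adjusted p = 4.02e-06). Sterol genes often carry CCAAT boxes, which bind NF-Y beside SREBP, and the stretch before the *Idi1* start (RefSeq, GRCm38.p6 chr13:8885456-8885605, forward strand) is shown with them in capitals.
Idi1: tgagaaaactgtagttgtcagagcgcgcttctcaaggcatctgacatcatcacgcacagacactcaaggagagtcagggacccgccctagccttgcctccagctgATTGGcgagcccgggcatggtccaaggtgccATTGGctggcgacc
It held 2 CCAAT boxes, both as ATTGG, whose first bases lie 45 and 14 bases before the start. CCAAT was present in the windows of 17 of the 18 cholesterol genes that have one, and in those of 41.1% of all genes. *Sqle*, squalene epoxidase and the most abundant of the list, rose by 0.64, a call that was lost with total counts alone and, as its fold came below 1.5, without replicate 2 at 16.7 mM (log2 fold change 0.55).

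Fatty acid oxidation changed little as a list, with 2 of 25 genes higher and 4 lower, or 1 and 9 with total counts alone. *Ucp2*, a mitochondrial carrier that lowers the coupling of respiration, rose from 60.9 ± 6.43 to 243 ± 71.4 CPM (SD, n = 5; log2 fold change 1.99, SE 0.21, adjusted p = 5.61e-06). *Hadh*, a dehydrogenase of short-chain oxidation that is abundant in β cells, rose by 0.79, and its call was lost with total counts alone and without replicates 4 and 5 at 16.7 mM (adjusted p = 0.0776). *Echs1*, the hydratase of the same spiral, fell by 0.85 and the thiolase *Acaa2* fell by 0.82 on the log2 scale.

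The ER and the early secretory pathway rose broadly. Of 37 ER chaperones and genes of the unfolded protein response, 24 rose and 1 fell, with a median of 0.82, and 10 rose and 5 fell with total counts alone. *Derl3*, a channel component of ER-associated degradation, stood at 7.81, 7.61, 8.14, 8.22 and 0.889 CPM at 2.8 mM and at 63.8, 54.2, 67.9, 19.4 and 8.20 CPM at 16.7 mM, with replicate 5 the lowest of both groups, and the groups overlapped (log2 fold change 2.71, SE 0.61, adjusted p = 0.00263). *Edem2*, which trims mannose from misfolded glycoproteins, stood at 80.6, 89.6, 80.6, 95.1 and 64.3 CPM and 442, 428, 416, 218 and 194 CPM (log2 fold change 2.05, SE 0.26, adjusted p = 2.26e-05), and *Ssr4*, a subunit of the translocon-associated complex, rose by 1.79. The rise did not include every arm. *Hspa5*, the central chaperone BiP, had the highest level of the list and changed by 0.09 (adjusted p = 0.722), by −0.40 with total counts alone and by −0.019 without replicate 3 at 16.7 mM. *Ern1*, the sensor IRE1α, was the 1 member that fell (log2 fold change -0.63, SE 0.18, adjusted p = 0.0137), and its fold came below 1.5, which ended the call, without replicate 2 at 2.8 mM or replicate 5 at 16.7 mM (log2 fold changes −0.57 and −0.51).

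Downstream of the ER, 21 of 41 genes of COPII vesicles, N-glycosylation and the Golgi rose and none fell, and 5 rose and 2 fell with total counts alone. *Kdelr3*, a receptor that returns ER proteins from the Golgi, stood at 5.79, 6.19, 6.19, 7.25 and 7.19 CPM at 2.8 mM and at 59.9, 53.8, 49.2, 18.4 and 8.71 CPM at 16.7 mM, with replicate 5 at 16.7 mM just above the low-glucose range (log2 fold change 2.54, SE 0.42, adjusted p = 0.000211). *Gmppb*, which makes GDP-mannose, rose by 1.71 and *Surf4*, a cargo receptor of the early pathway, by 1.40. *Ddost*, of the oligosaccharyltransferase, rose by 0.77, and its call was lost with total counts alone. Of 43 genes of exocytosis and granule docking, 14 rose and 2 fell, but 5 rose and 5 fell with total counts alone. *Syt5*, a synaptotagmin, rose from 21.8 ± 7.06 to 135 ± 60.3 CPM (SD, n = 5; log2 fold change 2.63, SE 0.36, adjusted p = 4.9e-05), and the small GTPase *Rab3d* rose by 1.74. *Rims1*, an active-zone scaffold, went from 0.268, 0.622, 0.0848, 0.121 and 0.0499 CPM to 3.34, 5.25, 2.73, 0.402 and 0.0771 CPM, with replicates 4 and 5 at 16.7 mM inside the low-glucose range (log2 fold change 3.35, SE 0.94, adjusted p = 0.0113), and lost its call with limma and voom weights (adjusted p = 0.169). *Rab3b* fell by 1.61 on the log2 scale.

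Immediate-early genes and CREB targets were among the genes with the strongest rise. Of 28 tested, 18 rose and 1 fell, with a median of 1.72, and 17 rose and 4 fell with total counts alone. *Fos*, a subunit of AP-1, stood at 9.45, 5.50, 19.4, 36.8 and 19.6 CPM at 2.8 mM and at 329.9, 259.9, 275, 286 and 422 CPM at 16.7 mM. All 5 samples at 16.7 mM lay far above those at 2.8 mM, replicates 4 and 5 included (log2 fold change 4.12, SE 0.46, adjusted p = 9.67e-06). *Nr4a1*, an orphan nuclear receptor induced by calcium and cAMP, stood at 0.424, 1.18, 0.148, 0.763 and 2.95 CPM and 68.4, 69.1, 74.3, 8.75 and 9.31 CPM, with replicates 4 and 5 the lowest at 16.7 mM (log2 fold change 5.38, SE 0.89, adjusted p = 0.000233). Its relative *Nr4a2* rose by 4.00. *Crtc2*, the coactivator of CREB, was the 1 member that fell (log2 fold change -0.66, SE 0.13, adjusted p = 0.000805).

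*Rem2*, a GTPase of the RGK family that inhibits voltage-gated calcium channels, was among the genes with the smallest p. It stood at 1.84, 2.05, 3.02, 1.91 and 3.55 CPM at 2.8 mM and at 19.3, 16.04, 23.2, 13.2 and 19.2 CPM at 16.7 mM, with no overlap and replicate 4 the lowest at high glucose (log2 fold change 2.88, SE 0.22, adjusted p = 5.96e-07). Over 16 genes of calcium channels and RGK GTPases, 2 rose and none fell, near the share of all genes, and with total counts alone 1 rose and 5 fell. Among 30 channels that set the membrane potential, 11 rose and 4 fell, 7 rose and 4 fell without replicate 2 at 16.7 mM, and 5 rose and 6 fell with total counts alone. *Kcnf1*, a modulatory potassium channel subunit, stood at 0.0112, 0.0235, 0.0318, 0.0867 and 0.00999 CPM at 2.8 mM and at 5.13, 2.22, 7.10, 2.64 and 0.964 CPM at 16.7 mM (log2 fold change 6.88, SE 0.85, adjusted p = 1.96e-05). In control cells it stood at 4.14, 1.38 and 13.8 CPM and 13.1, 4.72, 29.2 and 13.8 CPM, and the difference between the 2 responses, 5.64 on the log2 scale, did not pass the test (adjusted p = 0.235). *Kcnf1* is also a gene that the study names from these samples, and so is *Kcna2*, a delayed-rectifier channel, which rose by 2.02. The sodium channel *Scn3a* rose by 1.96, and the potassium channel *Kcnh2*, which helps to end an action potential, fell by 1.13 on the log2 scale. *Abcc8*, the sulfonylurea receptor of the ATP-sensitive channel, changed by 0.40 (adjusted p = 0.0659), and by −0.076 with total counts alone.

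Of 30 genes of cAMP production, breakdown and effectors, 10 rose and 2 fell, or 5 and 5 with total counts alone, and phosphodiesterases led the rise. *Pde10a* stood at 7.96, 7.75, 6.88, 6.12 and 4.59 CPM at 2.8 mM and at 48.9, 58.7, 48.1, 26.4 and 23.6 CPM at 16.7 mM (log2 fold change 2.63, SE 0.27, adjusted p = 4.42e-06). *Pde1c*, which is activated by calcium and calmodulin, stood at 5.98, 7.29, 6.62, 7.37 and 11.5 CPM and 29.0, 23.9, 32.9, 23.5 and 27.6 CPM, with replicate 5 the highest at 2.8 mM (log2 fold change 1.82, SE 0.17, adjusted p = 2.51e-06). *Gcgr*, the glucagon receptor, rose by 1.48, and *Prkar1b*, a regulatory subunit of protein kinase A, fell by 0.67 on the log2 scale. Of 54 genes that the study names for this experiment, 19 rose and 6 fell, or 13 and 8 with total counts alone. Those genes were picked on these samples and are no independent evidence of a direction.

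**Figure D4:**
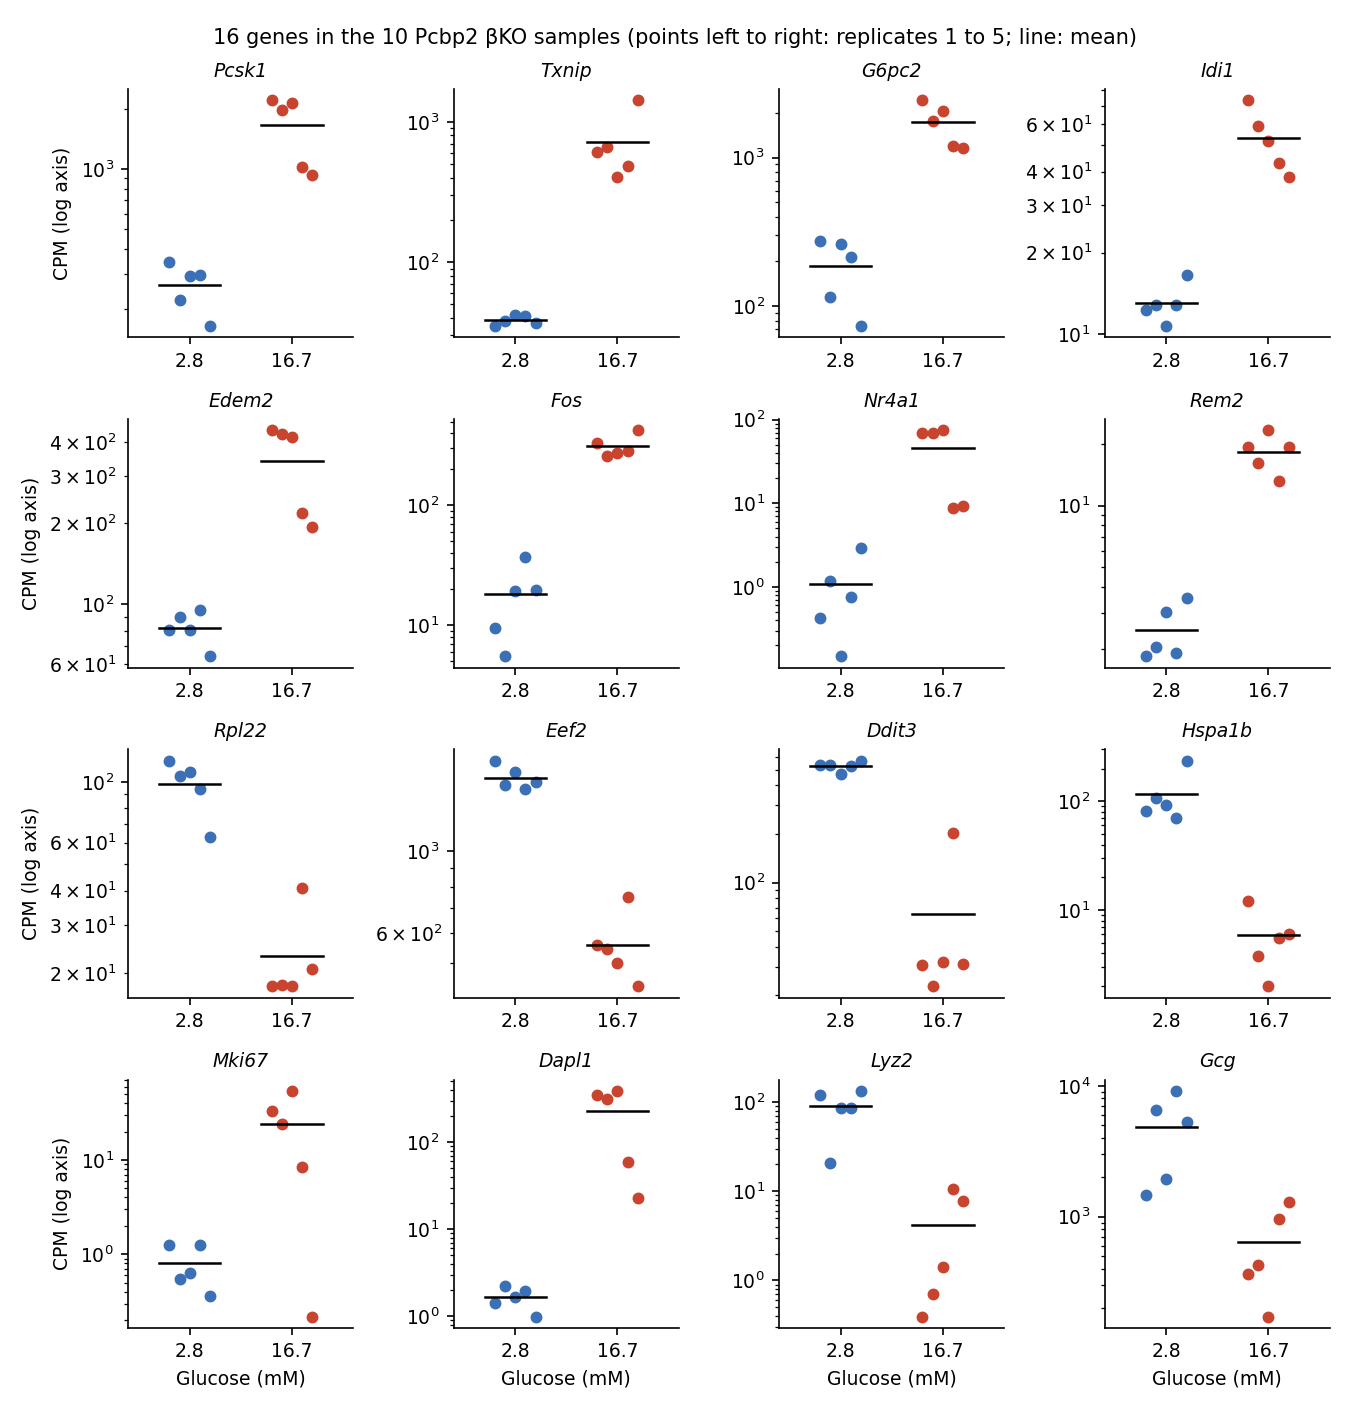
Levels of 16 genes in the 10 *Pcbp2* βKO samples, in CPM on a log axis, at 2.8 mM (blue) and 16.7 mM (red) glucose. Points run from replicate 1 to replicate 5 from left to right within a group, and the line is the group mean. *Fos* and *Rem2* rose without overlap between the groups. At 16.7 mM, *Ddit3* was highest in replicate 4 (202 CPM against 22.7 to 32.2 CPM), and *Mki67* in replicate 5 (0.218 CPM) lay below every sample at 2.8 mM.

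The genes that fell were led by the translation machinery. All 79 cytosolic ribosomal protein genes tested were called lower, against 10.4% of all genes. Their log2 fold changes ran from −2.09 to −0.63 with a median of −1.23, and all 79 were also lower with the other 3 scalings of the libraries. Without replicate 5 at 16.7 mM the call was kept by 76, and without replicates 4 and 5 by 77. *Rpl22* stood at 119.6, 105.0, 109, 94.5 and 62.9 CPM at 2.8 mM and at 17.9, 18.1, 17.9, 41.0 and 20.8 CPM at 16.7 mM, with replicate 4 the highest at high glucose (log2 fold change -2.09, SE 0.26, adjusted p = 2.28e-05). *Rpl9* and *Rps27* fell by 1.77 and 1.76, *Rpl35a*, which had one of the smallest p, fell by 1.34, and *Rpl4*, the most abundant, fell by 1.28 on the log2 scale.

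Translation factors followed, with none of 62 higher and 21 lower, or 43 lower with total counts alone. *Eif4b*, a cofactor of the helicase that unwinds 5′ ends, stood at 296, 356, 291, 284 and 272 CPM and 93.0, 102, 92.9, 142 and 94.1 CPM (log2 fold change -1.52, SE 0.14, adjusted p = 2.61e-06). The eIF3 subunits *Eif3f* and *Eif3h* fell by 1.59 and 1.23. *Eef2*, the elongation factor that moves the ribosome along, stood at 1754, 1506, 1632, 1471 and 1532 CPM at 2.8 mM and at 556, 545, 499, 749 and 431 CPM at 16.7 mM (log2 fold change -1.51, SE 0.16, adjusted p = 5.06e-06), and *Eef1a1*, the most abundant of the list, fell by 1.10. Ribosome biogenesis showed none of 36 higher and 19 lower, but 11 lower without replicate 5 at 2.8 mM and 33 with total counts alone. *Myc*, the transcription factor that drives growth programmes, went from 24.5, 29.2, 26.3, 34.1 and 57.0 CPM to 4.96, 2.83, 5.02, 19.9 and 5.45 CPM, highest in replicate 4 at high glucose (log2 fold change -2.16, SE 0.44, adjusted p = 0.00118). *Npm1* and *Gnl3*, nucleolar proteins, fell by 1.59 and 1.35.

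Nuclear genes of mitochondrial translation and respiration fell in part. Of 78 mitochondrial ribosomal proteins, 1 rose and 21 fell, or none and 56 with total counts alone, and *Mrpl30* and *Mrpl9* fell by 1.24 and 1.17. Of 61 nuclear genes of the respiratory chain, 4 rose and 13 fell, or 1 and 32 with total counts alone. *Ndufb10* and *Ndufa6* of complex I fell by 1.12 and 1.01, whereas *Ndufa1* of the same complex stood at 114, 96.4, 89.9, 102 and 89.2 CPM at 2.8 mM and at 518, 505, 399, 207 and 151 CPM at 16.7 mM (log2 fold change 1.86, SE 0.32, adjusted p = 0.000336), and *Ndufc2* rose by 1.02, a call that was lost with total counts alone (log2 fold change 0.52). Of the 13 mitochondrially encoded mRNAs, 8 were called higher and none lower, but with total counts alone 1 was higher and 1 lower, so that their direction rests on the scaling. *mt-Nd4l* rose by 1.11, *mt-Nd4* by 1.05 and *mt-Cytb* by 1.02, while *mt-Co1*, the most abundant, changed by -0.33 (adjusted p = 0.292). All mitochondrial genes together held 2.00% ± 0.540 (SD, n = 5) of the counts at 2.8 mM and 1.77% ± 0.133 (SD, n = 5) at 16.7 mM.

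Splicing factors were called in both directions, with 10 of 74 higher and 11 lower, or 2 and 38 with total counts alone. Among all genes 13.4% were higher and 10.4% lower, so that the list lay near the background. *Srsf3* stood at 59.1, 59.4, 57.9, 60.6 and 85.6 CPM and 205, 172, 183, 147 and 209 CPM (log2 fold change 1.51, SE 0.14, adjusted p = 2.81e-06), and *Hnrnpa2b1* rose by 1.33. *Snrpa1* of the U2 particle and *Hnrnpc* fell by 1.24 and 1.202. Counts assigned to retained-intron transcripts took 2.55% to 3.46% of a library at 2.8 mM and 1.65% to 2.11% at 16.7 mM, and those of transcripts marked for nonsense-mediated decay took 2.14% to 2.41% and 1.23% to 1.44%. Neither share overlapped between the concentrations. These are shares of all counts, of which *Ins2* alone took a mean of 6.60% at 2.8 mM and 23.1% at 16.7 mM. Whether either share fell among the counts outside the insulin genes was not tested, so that neither fall can be read as one in splicing or decay.

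The integrated stress response, in which the factor ATF4 answers stalled translation or amino acid shortage, was lower at high glucose for some of its targets. Of 31 genes, 2 rose and 11 fell, or 2 and 17 with total counts alone. *Ddit3*, which encodes the stress factor CHOP, stood at 534, 535, 471, 527 and 569 CPM at 2.8 mM and at 30.9, 22.7, 32.2, 202 and 31.3 CPM at 16.7 mM. Replicate 4 alone kept a high value, yet still below every sample at 2.8 mM (log2 fold change -3.05, SE 0.61, adjusted p = 0.00103). *Trib3*, a pseudokinase induced by CHOP, was likewise highest in replicate 4 at 16.7 mM, at 385, 303, 331, 369 and 270.1 CPM and 40.3, 30.2, 36.8, 224 and 38.6 CPM (log2 fold change -2.16, SE 0.54, adjusted p = 0.00498). The amino acid genes did not move as one. *Asns*, asparagine synthetase and the most abundant of the list, changed by 0.08 (adjusted p = 0.712) and by −0.41 with total counts alone, whereas the cystine transporter *Slc7a11* and the proline enzyme *Pycr1* rose by 1.46 and 1.13.

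*Nupr1*, a small stress-induced chromatin protein, stood at 637, 618, 612, 781 and 305 CPM at 2.8 mM and at 83.3, 92.4, 59.4, 418 and 22.5 CPM at 16.7 mM, where replicate 4 lay within the low-glucose range (log2 fold change -2.13, SE 0.61, adjusted p = 0.0126). The stretch before its start is shown because it holds the element TGATGNAAN, to which ATF4 and C/EBP partners bind (RefSeq, GRCm38.p6 chr7:126625471-126625620, reverse strand, element in capitals as read on the other strand).
Nupr1: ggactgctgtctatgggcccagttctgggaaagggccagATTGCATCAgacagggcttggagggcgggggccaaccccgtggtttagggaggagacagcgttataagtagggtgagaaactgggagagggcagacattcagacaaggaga
The element begins 111 bases before the start. It was found in the windows of 10 of the 28 genes of this list with a window and in those of 4.50% of all genes. The list was drawn up from known targets of ATF4 among others, so that its higher share is no independent evidence. Of these 10 genes 4 fell, *Nupr1* and *Trib3* among them, while *Slc7a11* and *Pycr1* rose and 4 did not pass the test.

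Genes of iron handling and oxidant defence were called in both directions, with 5 of 32 antioxidant and metal genes higher (3 without replicate 1 at 2.8 mM) and 7 lower. The shares of all genes were 13.4% higher and 10.4% lower. With total counts alone 1 of the 32 was higher and 13 were lower. *Ftl1*, the ferritin light chain, stood at 8359, 8363, 8071, 9064 and 9891 CPM at 2.8 mM and at 2086, 1636, 1795, 4672 and 2587 CPM at 16.7 mM (log2 fold change -1.78, SE 0.29, adjusted p = 0.000214). The heavy chain *Fth1* and catalase, *Cat*, fell by 1.17 and 1.75, while the metallothionein *Mt3* rose by 3.47 from under 0.5 CPM. *Txn1*, thioredoxin, rose by 0.72, a call that was lost with total counts alone. The inducible heat shock proteins were among the genes with the largest fall. *Hspa1b* stood at 81.7, 107, 92.8, 69.7 and 236 CPM and 12.2, 3.805, 1.99, 5.48 and 6.05 CPM, with replicate 5 the highest at 2.8 mM (log2 fold change -4.32, SE 0.64, adjusted p = 8.23e-05). Its near-identical neighbour *Hspa1a*, with which it may exchange reads, fell by 3.38.

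Other lists, of breakdown, defence and metabolism, had called genes in both directions, beside 13.4% higher and 10.4% lower among all genes. Of 34 lysosome and autophagy genes, 2 rose and 5 fell, or 1 and 22 with total counts alone. *Wipi1*, of autophagosome formation, rose by 2.33, while the protease *Ctsd* and the channel *Mcoln1* fell by 0.99 and 0.93. Of 38 proteasome genes, 1 rose and 5 fell, and of 30 interferon and antigen presentation genes, 1 rose and 7 fell, while with total counts alone none rose in either list and 17 and 14 fell. *B2m*, the light chain of MHC class I, stood at 60.3, 80.5, 41.9, 66.3 and 58.4 CPM and 27.4, 29.4, 15.4, 28.8 and 16.2 CPM (log2 fold change -1.39, SE 0.22, adjusted p = 0.000152). *Psmb9*, of the immunoproteasome, and *Cxcl10* fell by 1.07 and 2.43, and *H2-D1*, the most abundant of that list, was called lower at −0.60, a call that ended, with the fold below 1.5, without replicate 5 at 16.7 mM or replicate 4 at 2.8 mM (log2 fold changes −0.50 and −0.56). In a list of 25 survival and death genes, 3 rose and 3 fell, near the shares of all genes, but none rose and 11 fell with total counts alone. *Bid* and *Bax*, both promoters of apoptosis, were among those that fell, by 1.84 and 0.84. Of 25 glycogen genes 4 were higher and 3 lower, near the shares of all genes, but 3 higher and 9 lower with total counts alone. *Gys1*, glycogen synthase, and *Gbe1*, the branching enzyme, rose by 1.24 and 1.19, and *Stbd1*, which tethers glycogen to membranes, went from 152, 253, 133, 182 and 165 CPM to 11.1, 10.3, 6.99, 76.8 and 6.24 CPM (log2 fold change -2.99, SE 0.72, adjusted p = 0.00405). The pentose phosphate, polyol and hexosamine list had 4 of 18 members higher and 2 lower, which turned to 1 and 8 with total counts alone. Of 20 hypoxia-inducible genes 1 rose, *Pfkfb3*, by 1.90, and 2 fell (8 with total counts alone), among them the collagen hydroxylase *P4ha1*, by 1.15.

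Cell cycle and DNA replication genes rose, from a very low level. Of 39 tested, 25 rose and 3 fell, with a median of 1.51, and 21 rose and 5 fell with total counts alone. *Mki67*, the proliferation antigen Ki-67, stood at 1.24, 0.551, 0.636, 1.25 and 0.360 CPM at 2.8 mM and at 32.9, 23.9, 54.2, 8.48 and 0.218 CPM at 16.7 mM. Replicates 1, 2 and 3 at 16.7 mM were the highest, replicate 4 was intermediate, and replicate 5 lay below every sample at 2.8 mM, so that the groups overlapped (log2 fold change 4.90, SE 0.93, adjusted p = 0.000672). *Bub1*, of the spindle checkpoint, was also close to the low-glucose level in replicate 5 (0.134, 0.0704, 0.233, 0.382 and 0 CPM against 11.8, 6.39, 10.4, 2.79 and 0.0128 CPM, log2 fold change 5.30, SE 1.10, adjusted p = 0.00137). Without replicate 5 at 16.7 mM, 29 of the 39 were called higher. The calls of *Mki67* and *Bub1*, and that of *Ccnb1* given next, were lost with limma and voom weights, at adjusted p = 0.0688, 0.154 and 0.11.

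*Ccnb1*, cyclin B1, stood at 1.05, 1.09, 0.647, 2.46 and 0.210 CPM at 2.8 mM and at 57.9, 28.7, 53.6, 9.93 and 0.154 CPM at 16.7 mM (log2 fold change 4.80, SE 1.07, adjusted p = 0.0024). Genes of G2 and M phase commonly carry CCAAT boxes, and the stretch before the *Ccnb1* start (RefSeq, GRCm38.p6 chr13:100786487-100786636, reverse strand) is shown with them in capitals.
Ccnb1: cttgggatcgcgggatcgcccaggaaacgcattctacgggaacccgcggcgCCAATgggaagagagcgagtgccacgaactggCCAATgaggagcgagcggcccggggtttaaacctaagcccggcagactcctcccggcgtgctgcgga
It held 2 CCAAT boxes, 99 and 67 bases before the start, and 21 of the 30 genes of this list with a window held 1 or more, against 41.1% of all genes. The 3 members that fell were the kinase *Cdk4*, by 0.79, and the inhibitors *Cdkn1a* and *Cdkn1c*, by 1.17 and 2.35. Without replicate 3 at 2.8 mM, *Cdkn1c* lost its call (adjusted p = 0.0544). *Ccnd2*, the cyclin D2 of β cells and the most abundant member, changed by 0.31 (adjusted p = 0.153), and by −0.17 with total counts alone.

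Markers of dedifferentiation and genes that β cells normally keep silent did not share a direction, with 5 of 17 higher (3 without replicate 2 at 16.7 mM) and 2 lower (none without replicate 2 at 2.8 mM), and 5 higher and 6 lower with total counts alone. *Aldh1a3*, which marks failing β cells in diabetic mice, stood at 2.38, 1.34, 1.73, 1.73 and 0.789 CPM at 2.8 mM and at 62.8, 92.4, 28.7, 11.4 and 1.59 CPM at 16.7 mM, again with replicate 5 inside the low-glucose range (log2 fold change 4.63, SE 0.80, adjusted p = 0.000308). Of 14 genes of the response to prolactin and growth hormone, 9 rose and 3 fell, or 6 and 3 without replicate 5 at 16.7 mM and 5 and 4 with total counts alone. *Matn2*, an extracellular matrix protein, stood at 7.83, 4.80, 7.22, 7.89 and 5.54 CPM and 48.3, 65.5, 38.6, 33.0 and 28.7 CPM (log2 fold change 2.69, SE 0.36, adjusted p = 3.55e-05), and *Tph2*, a tryptophan hydroxylase, rose by 3.34 from at most 0.243 CPM. *Bcl6*, a repressor, and *Stat5b*, the transducer of both hormones, fell by 2.18 and 1.02. The other tryptophan hydroxylase, *Tph1*, stayed below 1 CPM in every *Pcbp2* βKO sample and was called at 2.51 (adjusted p = 0.0322), which 9 alternatives lost.

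Outside the lists, the largest rise among genes at 5 CPM or more and without overlap was that of *Dapl1*, an epithelial differentiation gene. It stood at 1.42, 2.24, 1.64, 1.96 and 0.989 CPM at 2.8 mM and at 343, 312, 389, 58.5 and 22.5 CPM at 16.7 mM, with replicates 4 and 5 well under the others (log2 fold change 7.10, SE 0.84, adjusted p = 1.4e-05). *Pdyn*, the precursor of dynorphin peptides, stood at 2.00, 3.91, 2.35, 6.45 and 3.73 CPM and 443, 504, 663, 297 and 45.0 CPM (log2 fold change 6.73, SE 0.65, adjusted p = 2.81e-06). *Slc5a10*, a transporter of mannose and fructose, stood at 0.346, 0.106, 0.0954, 0.295 and 0.270 CPM and 13.7, 12.4, 10.7, 26.8 and 41.6 CPM, and was highest in replicates 4 and 5 (log2 fold change 6.57, SE 0.54, adjusted p = 1.21e-06). *Col6a3*, a collagen VI chain, rose to about the same level in 4 of 5 samples (0.257, 0.0235, 0.244, 0.104 and 0.00999 CPM against 10.97, 3.805, 12.6, 14.01 and 12.8 CPM, log2 fold change 6.38, SE 0.62, adjusted p = 3.07e-06). *C1qtnf1*, *Rhd*, *Aass*, the predicted gene *Gm49636*, *Oacyl* and *Tcim* rose by 6.81, 5.996, 5.70, 5.44, 5.14 and 5.05 on the log2 scale, and the call of *C1qtnf1* was lost with limma and voom weights (adjusted p = 0.0594).

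Among the genes with the smallest p, *Lgals12*, a galectin of lipid droplets, stood at 2.03, 1.17, 2.25, 1.53 and 1.62 CPM and 30.3, 26.1, 31.3, 15.9 and 15.9 CPM (log2 fold change 3.79, SE 0.28, adjusted p = 5.67e-07). *Armcx2* rose within a narrow spread, from 23.6 ± 1.16 to 61.8 ± 6.05 CPM (SD, n = 5; log2 fold change 1.39, SE 0.11, adjusted p = 5.96e-07). On the lower side, *Actg1*, cytoplasmic γ-actin, stood at 3073, 3399, 2815, 3428 and 3078 CPM and 998, 975, 903, 1322 and 1118 CPM (log2 fold change -1.57, SE 0.14, adjusted p = 2.17e-06). *Fdx2*, a ferredoxin of iron-sulfur cluster assembly, and *Rp9*, a splicing-associated protein, fell by 1.94 and 1.47. *Angptl6*, a secreted angiopoietin-like protein, went from 304, 251, 289, 279.9 and 201 CPM to 16.97, 18.7, 15.2, 87.8 and 14.7 CPM (log2 fold change -3.11, SE 0.51, adjusted p = 0.000218), and *Mslnl* fell by 3.38.

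Several of the largest falls were in genes of macrophages, and transcripts of other islet cells were present in the sorted samples. *Lyz2*, lysozyme of phagocytes, stood at 121, 20.8, 85.2, 85.4 and 134 CPM at 2.8 mM and at 0.394, 0.706, 1.43, 10.5 and 7.68 CPM at 16.7 mM, with no overlap and with replicate 2 the lowest at 2.8 mM (log2 fold change -4.42, SE 0.94, adjusted p = 0.00165). *Ctss*, *C1qb*, *Apoe*, *Gpnmb* and *Lgals3*, which macrophages express strongly, fell by 4.33, 4.17, 4.13, 3.46 and 3.63. Of the 6 macrophage markers, 5 fell, *Adgre1* (F4/80) by 4.33 and *Csf1r* by 3.68 among them, and none was at 0 in all samples of a group. *C1qa* was called higher (log2 fold change 1.47, SE 0.35, adjusted p = 0.0042), with replicate 5 at 16.7 mM at 101 CPM, and that call was lost without replicates 4 and 5 at 16.7 mM. The summed level of the 6 markers was 45.6 to 170 CPM at 2.8 mM and 21.3 to 111 CPM at 16.7 mM. In bulk samples, fewer cells of a type and less of its RNA per cell cannot be told apart.

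Hormones of other endocrine cells were lower at high glucose. *Gcg*, glucagon of α cells, stood at 1452, 6473, 1951, 9159 and 5307 CPM at 2.8 mM and at 363, 425, 172, 956 and 1301 CPM at 16.7 mM, without overlap (log2 fold change -2.92, SE 0.66, adjusted p = 0.0025). *Ppy*, pancreatic polypeptide, and *Pyy*, peptide YY, fell by 1.92 and 1.88, with 1 sample of overlap each. *Sst*, somatostatin of δ cells, changed by -1.22 (adjusted p = 0.0672) and passed the test in 4 alternatives. The summed α cell markers lay between 1833 and 9681 CPM at 2.8 mM and between 1389 and 2514 CPM at 16.7 mM. Of the 7 α cell markers tested 2 fell and 2 rose, the latter being *Gc* and *Ttr*, by 3.84 and 2.38, so that the list did not move one way, while 5 fell and 2 rose with total counts alone. The call of *Gc* was lost with a replicate block (adjusted p = 0.0504), and *Irx1* was at 0 in all samples at 16.7 mM. Summed PP cell markers lay at 1431 to 7425 CPM and 470 to 1456 CPM, and δ cell markers at 517 to 1389 CPM and 268 to 621 CPM. β cell markers summed to 67334 to 97381 CPM at 2.8 mM and 359038 to 475307 CPM at 16.7 mM. Most of these sums came from *Ins2*, *Ins1* and *Iapp*, so that they follow the rise of those genes and do not measure the content of β cells. Acinar markers summed to at most 17.9 CPM, endothelial markers to at most 6.35 CPM, stellate markers to at most 1.44 CPM, and ductal markers to 451 to 565 CPM and 384 to 596 CPM. The part of other cell types in the changes above was not tested.

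The response of control β cells to the same glucose step was measured in 7 other samples, so that the 2 comparisons share none. In control cells 3153 genes (13.8%) were called, 1629 higher and 1524 lower, from 3 and 4 samples. Calls rest on fewer samples there, so that counts of calls do not compare the size of the 2 responses. Called in both genotypes were 2579 genes, which is 47.5% of those called in *Pcbp2* βKO cells and 81.8% of those called in control cells. Of these, 1357 rose in both, 1219 fell in both and 3 had opposite signs. Among the 2852 genes called in *Pcbp2* βKO cells alone, 2692 had the same sign in control cells, where 1281 of them had an unadjusted p under 0.05 in the edgeR test. The matching shares over all genes tested were not computed, so that these counts have no background beside them. Pearson's r of the log2 fold changes across the 22784 genes was 0.68, with no p since genes are not independent samples. In control cells 6 of 13 genes of the granule cargo list were higher and none lower, against 11 and none in *Pcbp2* βKO cells, and ER chaperones had 16 of 37 higher against 24, and COPII, glycosylation and Golgi genes 14 of 41 against 21. Closer counts were found for cholesterol synthesis, with 16 of 26 genes higher and none lower in control cells, for 17 of 28 immediate-early genes higher and 1 lower, and for 73 of 79 cytosolic ribosomal proteins lower and none higher. Cell cycle genes had 4 of 39 higher and 1 lower in control cells, against 25 and 3. Mitochondrially encoded genes had 1 of 13 higher, against 8. The list medians differed less than these counts for some lists. In control and *Pcbp2* βKO cells, the median log2 fold change was 1.195 and 1.505 for cell cycle genes. It was 0.72 and 0.82 for ER chaperones, and 0.55 and 0.60 for COPII, glycosylation and Golgi genes. For granule cargo it was 1.11 and 1.80, and for mitochondrially encoded genes 0.31 and 0.77. Whether any of these lists differed between the genotypes was not tested as a list, and no member but *Ins1* passed the test of the difference.

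**Figure D5:**
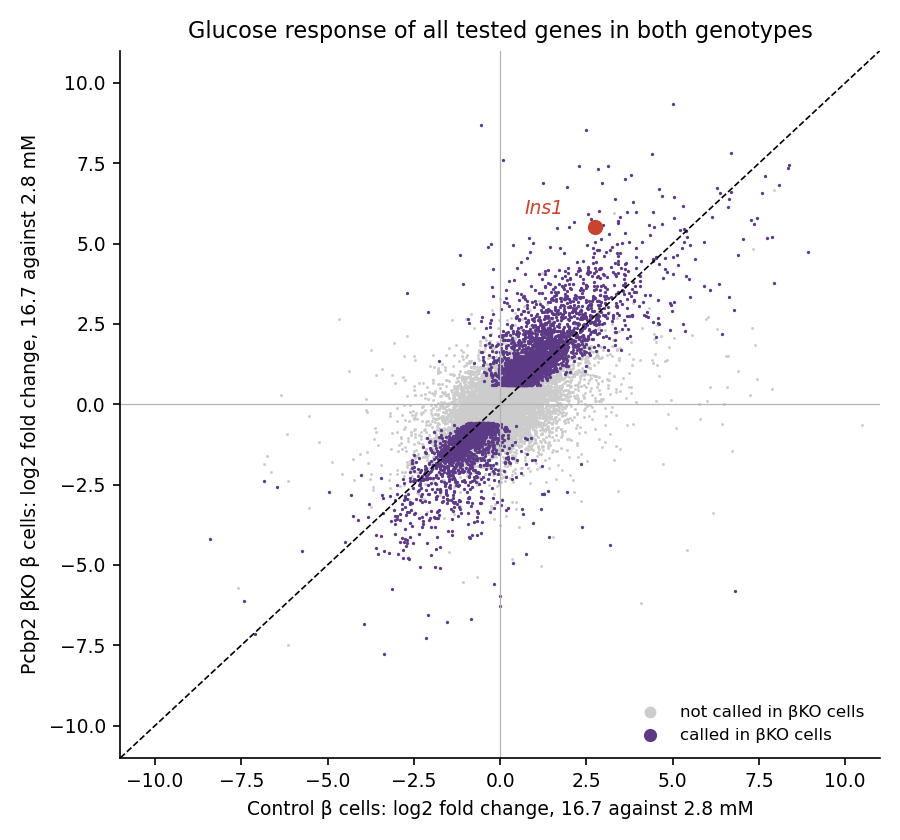
Log2 fold change of 22784 genes at 16.7 mM against 2.8 mM glucose in control cells (horizontal axis) and *Pcbp2* βKO cells (vertical axis). Each point is 1 gene, purple where it was called in *Pcbp2* βKO cells, and the dashed line marks equal responses. *Ins1*, at 5.53 in *Pcbp2* βKO cells and 2.75 in control cells, is the 1 gene called for the difference.

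The difference between the 2 glucose responses was called in 1 gene, *Ins1* (0.00439% of the genes tested), while 1042 genes (4.57%) had an unadjusted p under 0.05 for it. DESeq2 called 32 genes, a fit with a replicate block 13, and a fit with no filter on low counts 15. In control cells *Ins1* stood at 10044, 8327 and 13605 CPM at 2.8 mM and at 99392, 79947, 67437 and 40714 CPM at 16.7 mM. At 2.8 mM all 5 *Pcbp2* βKO samples lay below all 3 control samples, at 967 to 1751 CPM, whereas at 16.7 mM the genotypes overlapped. The glucose response of *Ins1* was therefore larger by 2.78 on the log2 scale (SE 0.36, adjusted p = 0.00902) in *Pcbp2* βKO cells. It lay between 2.56 and 2.97 in all alternatives and kept its call in all but 1, since without replicate 3 of the control cells at 2.8 mM the adjusted p was 0.0523. *Ins2* rose by 2.29 in *Pcbp2* βKO and by 1.66 in control cells, a difference of 0.64 that did not pass (adjusted p = 1).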

How the data were processed

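RNA of sorted tdTomato-positive cells was sequenced as 150-nt read pairs after an ultra-low-input library preparation. The authors deposited 1 table per sample from Kallisto (GRCm39, version not given in the sources used here) with estimated counts and TPM per transcript, and replicates were not pooled. The estimated counts were summed per gene and rounded. The deposited TPM values, which Kallisto scales by transcript length and library, were used only for alternative shares of the insulin genes. Estimated counts divide ambiguous reads between similar transcripts, which bears on *Ins1* and *Ins2*.

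All 17 samples were fitted with 4 group means in edgeR 4.0.16 (R 4.3.3), with TMM scaling, the filterByExpr filter on low counts, the quasi-likelihood F test and Benjamini-Hochberg adjustment over 22784 genes. The SE is the log2 fold change divided by the square root of F. A call needed an adjusted p below 0.05 with more than a 1.5-fold change. The batch factor of the study's own model was not used here, because its levels are not in the labels or the text, so that batch effects within the groups remain. The labels do not say what a replicate is, and p-values measure only the spread between these samples, which may be technical. On simulated counts for the 5 against 5 comparison of 22784 genes, the test recovered 62% of changes of 1 on the log2 scale and 93% of changes of 2, and 5.49% of its calls were false. The simulation changed 100 genes by each amount, as many up as down. It held no shift in the make-up of the libraries and no replicates that stood apart, so that its rates may not hold for the calls made here.

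The gene lists, members and alternatives were chosen with earlier results of these data known. Named genes are the 12 largest changes in each direction among called genes at a mean of 5 CPM or more without overlap, the 6 smallest p with the same limits, up to 3 called members per direction and the most abundant member of each list, the poly(C)-binding proteins and markers of other cells, with whole families where stated. Results of some genes are not reported here. DESeq2 1.42.0, limma 3.58.1 with voom weights, other scalings, other filters, a replicate block and fits without each sample were the alternatives. The fits without each control sample, and the list counts without libraries that stood apart with total counts alone or without *Gng12*, were added after seeing the data. Promoter windows are RefSeq sequences on GRCm38.p6, and gene positions are GRCm39.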

Additional observations from a re-analysis of the deposited data

Results flagged for a closer look

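For the 183 genes named, both groups of 5 *Pcbp2* βKO samples were examined for a sample far from the other 4 (Dixon's test at 95%). Chance flags about 1 in 20 groups, and 46 of these groups were flagged.

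Replicate 4 at 16.7 mM stood above the other 4 samples, toward the low-glucose level, for 16 genes that fell. Among ribosome, translation and growth genes these were *Rpl22* at 41.0 CPM, *Rpl9* at 201 CPM, *Rps27* at 161 CPM, *Eif4b* at 142 CPM, *Myc* at 19.9 CPM, *Npm1* at 186 CPM and *Gnl3* at 65.7 CPM. Among stress genes they were *Ddit3* at 202 CPM, *Trib3* at 224 CPM, *Nupr1* at 418 CPM and *Bid* at 9.35 CPM. The others were *Mcoln1* at 70.3 CPM, *Stbd1* at 76.8 CPM, *Lgals3* at 2.21 CPM, *Mslnl* at 10.9 CPM and *Angptl6* at 87.8 CPM.

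Replicate 5 at 16.7 mM stood above the others for 6 genes that rose, *Npy* at 10.4 CPM, *Pdx1* at 168 CPM, *Nkx6-1* at 41.4 CPM, *Txnip* at 1426 CPM, *Rgs16* at 156 CPM and *Gcgr* at 171 CPM. At the same concentration *Mt3* was highest in replicate 3, at 5.54 CPM, and *Sst* lowest in replicate 2, at 72.0 CPM.

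At 2.8 mM, replicate 5 stood above the others for 10 genes, *Pcbp1* at 105 CPM, *Srsf3* at 85.6 CPM, *Hnrnpc* at 796 CPM, *Pde1c* at 11.5 CPM, *Cdkn1a* at 208 CPM, *Fth1* at 1801 CPM, *Hspa1b* at 236 CPM, *Hspa1a* at 139 CPM, *Lgals3* at 18.8 CPM and *Pyy* at 2313 CPM. It stood below them for *Eif3f* at 84.0 CPM and *Derl3* at 0.889 CPM. Replicate 2 was the lowest for *Pdx1* at 38.1 CPM and *Ccnd2* at 583 CPM and the highest for *Eif4b* at 356 CPM and *Bid* at 31.2 CPM. Replicate 1 was the highest for *mt-Nd4l* at 38.5 CPM and *mt-Nd4* at 697 CPM. Replicate 4 was the highest for *Kcnf1* at 0.0867 CPM, *Tcim* at 0.728 CPM and *Ttr* at 242 CPM and the lowest for *Gm49636* at 0.0173 CPM.

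The glucose response of *Ins1* differed between the genotypes by 2.78 on the log2 scale in the test of the difference itself. Technical causes of these differences were not tested.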

How the results depend on the processing

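The number of genes called for glucose in *Pcbp2* βKO cells stayed within 1.5 times of 5431 in all alternatives, between 4490 with a stricter filter on low counts and 7851 with total counts alone, and between 4640 and 5742 when 1 sample was left out. With total counts alone, 1482 genes were higher and 6369 lower. Genes called for the difference between the genotypes numbered 15 with no filter on low counts and 32 with DESeq2, and 0 to 2 when 1 sample was left out. Counts of 2 came without replicate 2 at 2.8 mM or replicate 5 at 16.7 mM of *Pcbp2* βKO cells and without replicate 2 of control cells at 2.8 mM, and the count of 0 came without replicate 3 of control cells at 2.8 mM. With a replicate block, 13 genes were called for the difference and 5324 for glucose in *Pcbp2* βKO cells.

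The replicate numbers were not taken to pair the samples, since the correlation of deviations from the group means in same-numbered samples was 0.0664, 0.171, 0.105, 0.0746 and 0.193 and not over 0.1 in every pair. Every sample correlated best with its own number, which is a hint from the data and not the design.

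Of the 168 named genes that were called, 138 kept the call under all alternatives and none changed sign. The call was lost by 14 with total counts alone, 10 with limma and voom weights, and 4 under the replicate block. Sign changes occurred in genes that had not been called. With total counts alone *Pcbp3* was at −0.20, *Scg5* at −0.15, *Cpe* at −0.30, *Hspa5* at −0.40, *Asns* at −0.41, *Abcc8* at −0.076 and *Ccnd2* at −0.17, and *Hspa5* lay between −0.019, without replicate 3 at 16.7 mM, and 0.206, without replicate 5 at 16.7 mM, when 1 sample was left out. The causes were not tested. The *Ins2* share rose by 16.5 percentage points of counts and by 33.2 of TPM. Genes at a few counts per library rest on little depth.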
